A study of Homo sapiens with 6 samples.

Results

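The TEAD peak list and the Flag-Bio-YAP5SA peak list (called YAP5SA here) of the human cell line CClp1 were compared as counts of peaks in fixed bins of 1 Mb on chromosomes 1 to 22. Of 22804 peaks in the 3 lists read, 18057 belonged to this comparison: 8989 of the 9321 TEAD peaks and 9068 of the 9616 YAP5SA peaks. A bin runs from position 0 of the chromosome in steps of 1 Mb, and a peak was counted in the bin that holds its centre; positions are on hg19, counted from 1. The 2705 bins that held a peak of any of the 3 lists (TEAD, YAP5SA or YAP) are called bins in use, so that unsequenced stretches of the genome did not count as empty.

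The samples are 6 chromatin immunoprecipitation sequencing (ChIP-seq) libraries of CClp1, a human bile duct cancer line, with 1 library per group: YAP, TEAD, Flag-Bio-YAP5SA, IgG, Input and BirA. All were fixed for 10 min in 1% formaldehyde, stopped with 0.125 M glycine and sheared to about 250 bp. The YAP5SA library was made against a tagged mutant of YAP, with BirA as its own control in the series' design text, whereas the TEAD library was made with an antibody that the same text assigns to TEAD1. How the tagged mutant was expressed, and at what level, was not stated in the labels, and peak lists alone offer no marker by which to check the cell line. The IgG, Input and BirA libraries, and further YAP libraries named in the design text, were not analysed here, so no background stands beside the counts. With 1 library a side, no value has a replicate error and no test between conditions was possible. Intervals are exact Clopper-Pearson 95% intervals, which cover counting error only and treat peaks or bins as independent, although neighbours are not.

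TEAD proteins bind DNA directly and bring the co-activator YAP, which has no DNA-binding domain of its own, to enhancers. The Hippo pathway holds YAP back through LATS kinases, which phosphorylate serines of YAP and keep it out of the nucleus. In YAP5SA these serines are replaced by alanine, so the protein escapes that control.

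The 2 lists were almost equal in length and were spread in different ways. TEAD peaks were concentrated: bins in use held a median of 2 TEAD peaks (interquartile range 0 to 4) and up to 58. YAP5SA peaks were close to even, with a median of 3 per bin (2 to 5) and at most 15. The means were alike, 3.32 TEAD and 3.35 YAP5SA peaks per bin, but the standard deviation over bins was 5.11 for TEAD and 2.12 for YAP5SA. The variance divided by the mean, which is 1 for counts scattered with equal probability, was 7.86 for TEAD and 1.34 for YAP5SA. It was 2.44 for the shorter YAP list of 3602 peaks.

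**Figure D1:**
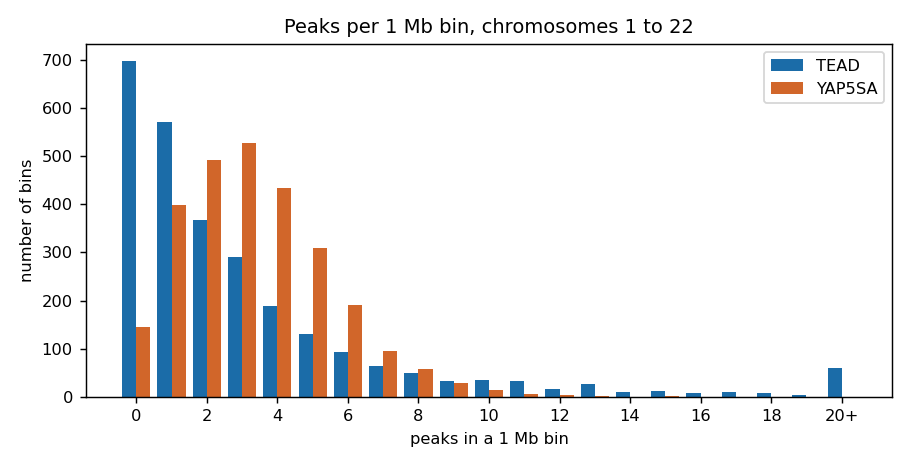
Number of 1 Mb bins (y axis) by the number of peaks they hold (x axis), for TEAD in blue and YAP5SA in orange. The last pair of bars holds bins with 20 or more peaks, of which there were 59 for TEAD and 0 for YAP5SA, while 698 bins held no TEAD peak and 146 no YAP5SA peak.

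No TEAD peak was listed in 698 bins in use (25.8%, 95% interval 24.2 to 27.5), against 146 bins with no YAP5SA peak (5.40%, 4.58 to 6.32). The densest 10% of bins, 270 bins ranked within each list, held 46.1% of TEAD peaks (45.1 to 47.1) and 22.6% of YAP5SA peaks (21.7 to 23.5). The 27 densest bins alone held 10.4% of TEAD peaks and 3.24% of YAP5SA peaks. It took 316 bins to gather 50% of the TEAD list and 749 bins for 50% of the YAP5SA list. The Gini coefficient, 0 for equal bins and 1 for all peaks in one bin, was 0.635 for TEAD, 0.532 for YAP and 0.347 for YAP5SA. YAP had a mean of only 1.33 peaks per bin. Fewer peaks per bin raise this coefficient by themselves, so the YAP value is not on an equal footing.

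**Figure D2:**
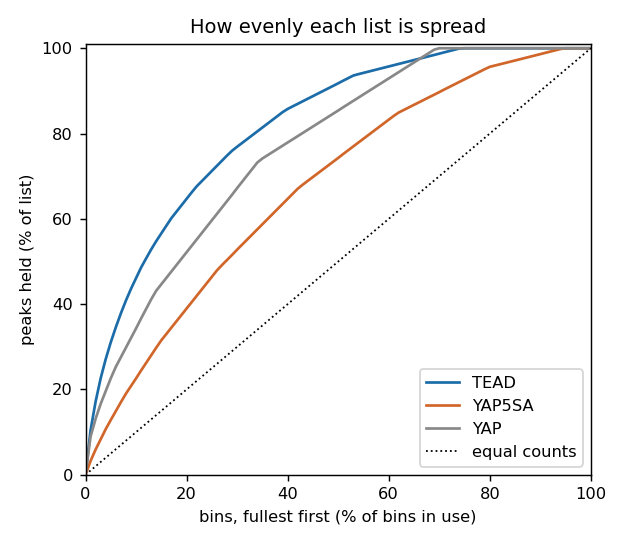
Percent of a list's peaks (y axis) held by a given percent of bins in use, counted from the fullest bin down (x axis), with the dotted line marking equal counts in all bins. The YAP5SA curve lies nearest the dotted line, and at 10% of bins TEAD has reached 46.1%, YAP 34.3% and YAP5SA 22.6%. The YAP list is shorter, and fewer peaks per bin raise its curve by themselves.

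Part of the TEAD concentration lay in short clusters. Of the TEAD peaks, 3932 (43.7%) lay within 12500 bp of another TEAD peak, against 973 YAP5SA peaks (10.7%) within that distance of another YAP5SA peak. When peaks joined by gaps of up to 12500 bp were counted as 1 site, 6291 TEAD and 8552 YAP5SA sites remained. The variance divided by the mean was then 2.83 for TEAD and 1.17 for YAP5SA, and the densest 10% of bins held 35.3% of TEAD sites and 21.9% of YAP5SA sites. TEAD thus stayed the more concentrated list at this scale. The authors' score per peak had a median of 76.2 in the TEAD list and 57.0 in the YAP5SA list, and the lowest listed score is 50 in both; as read depth and control are unknown, scores of different lists are not on 1 scale. Among the higher-scoring 50% of each list the ratio of variance to mean was 6.26 for TEAD and 1.16 for YAP5SA.

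At 1 Mb the density of the 2 lists rose together only slightly. Across the 2705 bins Pearson's r was 0.194 and Spearman's rank correlation 0.206. Spearman's value moved with bin size, from 0.0623 at 0.5 Mb (5031 bins) through 0.311 at 5 Mb (567 bins) to 0.363 at 10 Mb (293 bins). These describe bins that share mappable sequence and any common control library. With TEAD and YAP5SA peaks that overlap each other left out, Pearson's r at 1 Mb was 0.0434 and the rank correlation 0.107; leaving them out lowers both by construction. Bins with 1 YAP5SA peak (399 bins) held a mean of 2.29 TEAD peaks, those with 4 (433 bins) 3.36, and those with 8 or more (113 bins) 7.50. In the other direction the gradient was flatter. Bins without a TEAD peak held a mean of 2.76 YAP5SA peaks and the 302 bins with 8 or more TEAD peaks 4.08. The 59 bins with 20 or more TEAD peaks held 5.14 YAP5SA peaks on average.

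A bin was called dense in a list at 2 times or more the list's mean and poor at 0.5 times or less. Dense therefore meant at least 7 peaks and poor at most 1, in either list. By this rule 44 bins were dense in TEAD and poor in YAP5SA, which is 1.63% of the 2705 bins in use (1.18 to 2.18). Another 45 bins, 1.66% (1.22 to 2.22), were dense in YAP5SA and poor in TEAD. The balance of the 2 counts depended on the setting: it was 91 against 195 in bins of 500 kb, 18 against 8 in bins of 2 Mb, 47 against 93 among higher-scoring peaks and 55 against 32 as sites. A further 52 bins were dense in both lists (1.92%, 1.44 to 2.51). Of the 365 bins dense in TEAD, 12.1% (8.90 to 15.8) were poor in YAP5SA, while 20.1% of all bins were. Of the 209 bins dense in YAP5SA, 21.5% (16.2 to 27.7) were poor in TEAD, while 46.9% of all bins were. A dense bin of one list was thus less often poor in the other list than bins in general, and more often dense in it. Of TEAD-dense bins, 14.2% (10.8 to 18.3) were also dense in YAP5SA, against 7.73% of all bins.

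**Figure D3:**
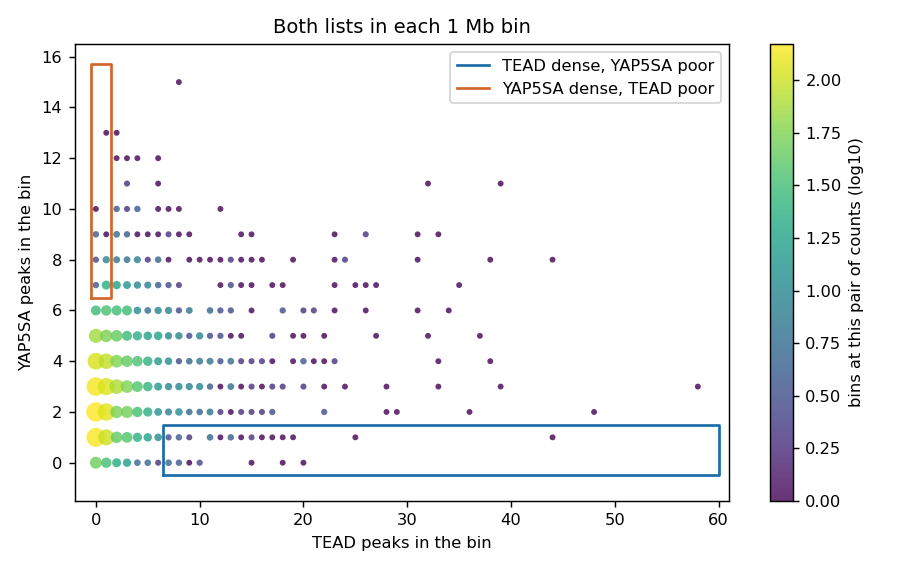
TEAD peaks (x axis) and YAP5SA peaks (y axis) in each 1 Mb bin; larger and lighter points stand for more bins at that pair of counts, with colour on a log10 scale. The blue frame holds the 44 bins dense in TEAD and poor in YAP5SA and the orange frame the 45 opposite bins, whose counts stop at 13 YAP5SA peaks while the blue frame reaches 44 TEAD peaks.

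The thresholds cut through a continuous range. Just outside them lay 13 bins with 6 TEAD peaks and at most 1 YAP5SA peak, and 55 bins with at least 7 TEAD peaks and 2 YAP5SA peaks. On the other side 63 bins had 6 YAP5SA peaks and at most 1 TEAD peak, and 36 had at least 7 YAP5SA peaks and 2 TEAD peaks. Of the 45 bins dense in YAP5SA and poor in TEAD, 26 stood exactly at 7 YAP5SA peaks. Of the 44 opposite bins, 8 stood exactly at 7 TEAD peaks. Over all dense bins, 96 of 209 in YAP5SA and 63 of 365 in TEAD stood at 7. The TEAD side reached further beyond its threshold than the YAP5SA side, as the TEAD list did over all its dense bins.

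Bins dense in TEAD and poor in YAP5SA held 7 to 44 TEAD peaks, with a median of 10.5, and 532 in all. YAP5SA had no peak in 16 of them and 1 peak in 28, while 146 of all 545 YAP5SA-poor bins had none. The bin with the largest difference, on chromosome 10 from 39000001 to 40000000, held 44 TEAD peaks, 1 YAP5SA peak and 10 YAP peaks. All 44 TEAD peaks lay in a single site of 77.4 kb that ends at 39153986, beside a stretch of over 2.5 Mb with no peak in any list. The next, on chromosome 1 from 121000001 to 122000000, held 25 TEAD, 1 YAP5SA and 37 YAP peaks and also borders such a stretch. These 2 were the only ones of the 44 within 2 Mb of a peak-free stretch of over 2.5 Mb, and the other 42 held at most 3 YAP peaks. Counted as sites, the first of these bins held 1 TEAD and 1 YAP5SA site and the second 3 and 1.

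The other named bins lay away from such stretches. Chromosome 8 from 16000001 to 17000000 held 20 TEAD peaks and no YAP5SA peak. These TEAD peaks spanned 385 kb in 6 sites, had a median score of 147, and the strongest lay from 16690844 to 16691275 with a score of 506. The bins on either side had 1 and 10 TEAD peaks and 3 YAP5SA peaks each, so the YAP5SA count of 0 did not extend to them.

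Chromosome 10 from 3000001 to 4000000 held 18 TEAD peaks and no YAP5SA peak, and its neighbour to the right held 33 TEAD and 3 YAP5SA peaks. Chromosome 19 from 3000001 to 4000000 held 15 TEAD peaks and none of either YAP5SA or YAP. There the TEAD peaks were weak, with a highest score of 125, and spread over 985 kb in 13 sites. This bin shows that a high TEAD count can come from scattered weak peaks as well as from clusters.

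In 2 of the named bins the single YAP5SA peak sat within the strongest TEAD peak. On chromosome 8 from 32000001 to 33000000, with 18 TEAD peaks, the strongest TEAD peak (32084477 to 32085489, score 1332) held the YAP5SA peak from 32085268 to 32085443. On chromosome 10 from 69000001 to 70000000, with 17 TEAD peaks, the strongest (69369688 to 69370158, score 446) held the YAP5SA peak from 69369825 to 69369983. The bin on chromosome 4 from 114000001 to 115000000 had 15 TEAD peaks, and its 1 YAP5SA peak (114705199 to 114705335) ended just before the strongest TEAD peak, which starts at 114705596. The remaining named bins, on chromosome 1 from 192000001 (19 TEAD peaks) and chromosome 6 from 94000001 (16), had their single YAP5SA peak elsewhere.

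Such a placement was not the rule. Of the 28 YAP5SA peaks in the bins dense in TEAD and poor in YAP5SA, 7 overlapped a TEAD peak. A related measure covers more bins. In the 365 bins dense in TEAD, the highest-scoring TEAD peak of the bin overlapped a YAP5SA peak by at least 1 bp in 115 bins (31.5%, 26.8 to 36.5). The other 4476 TEAD peaks of these bins did so 178 times (3.98%, 3.42 to 4.59). In the 44 bins poor in YAP5SA the counts were 5 of 44 and 2 of 488, and in the 52 bins dense in both they were 28 of 52 and 74 of 864. The strongest TEAD peak of a bin was thus the one most often met, also where YAP5SA was sparse. Peak width was not held constant in this comparison.

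Bins dense in YAP5SA and poor in TEAD held 7 to 13 YAP5SA peaks, with a median of 7, and 346 in all. TEAD had no peak in 12 of them and 1 peak in 33, whereas 698 of all 1269 TEAD-poor bins had none, a larger share. The fullest, on chromosome 19 from 20000001 to 21000000, held 13 YAP5SA peaks and 1 TEAD peak. Its YAP5SA peaks were spread over 937 kb in 12 sites, with scores of at most 87.2, and its neighbours had 1 YAP5SA peak each. The TEAD peak there had a score of 50.8, near the lowest listed.

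Chromosome 11 from 32000001 to 33000000 held 10 YAP5SA peaks and no TEAD peak, and its left neighbour no YAP5SA peak. Bins with 9 YAP5SA peaks and no TEAD peak were found on chromosome 3 from 119000001, chromosome 8 from 131000001, chromosome 13 from 22000001 and chromosome 21 from 29000001. Bins with 8 and none lay on chromosome 5 from 157000001, chromosome 11 from 39000001 and chromosome 12 from 83000001. Chromosome 18 from 1 to 1000000 held 9 YAP5SA peaks and 1 TEAD peak. In these 10 bins the highest YAP5SA score was 112, and the peaks were spaced over 715 to 937 kb. Another 3 of the 45 bins in this direction lay near a long peak-free stretch, by the length and distance used for TEAD. They were on chromosome 16 from 48000001, chromosome 19 from 23000001 and chromosome 21 from 9000001. Without peaks near such a stretch or over 1 kb wide, they kept 6, 0 and 0 YAP5SA peaks. The bin to the right of the last held 58 TEAD and 3 YAP5SA peaks.

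The YAP list, which entered the rule for opposite bins only through the choice of bins in use, was read in the same bins. The 48 bins in use with neither a TEAD nor a YAP5SA peak hold a YAP peak by construction. This affects the values over all bins in use. TEAD-dense, YAP5SA-poor bins held a mean of 2.02 YAP peaks and a median of 1. The bin on chromosome 1 with 37 YAP peaks raises that mean. YAP5SA-dense, TEAD-poor bins held a mean of 1.38 and a median of 1, and all bins in use 1.33 and 1. Bins with no YAP peak made up 15 of 44, 12 of 45 and 827 of 2705. By the median, YAP counts were alike in the 2 kinds of bin. Rank correlation over the 2705 bins was 0.130 between TEAD and YAP and 0.00898 between YAP and YAP5SA. In the 293 bins of 10 Mb these values were 0.378 and 0.174.

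TEAD peaks differed between the kinds of bin in score, width and spacing, and YAP5SA peaks in width and spacing. In TEAD-dense, YAP5SA-poor bins the median TEAD score was 83.5 and the median width 243 bp, and 62.6% of the TEAD peaks lay within 12500 bp of another. In bins dense in both lists these values were 96.8, 255 bp and 70.7%, and over all bins 76.2, 213 bp and 43.7%. A bin with more peaks has closer neighbours, so the last share follows in part from the rule. YAP5SA peaks in YAP5SA-dense, TEAD-poor bins had a median score of 56.6 and width of 158.5 bp, against 57.0 and 165 bp over all bins. In bins dense in both they had 59.2 and 183.5 bp. Of YAP5SA peaks, 16.2% lay within 12500 bp of another in YAP5SA-dense, TEAD-poor bins and 24.3% in bins dense in both, against 10.7% over all bins. The YAP5SA shares, too, follow in part from the rule. YAP5SA peaks of the YAP5SA-dense, TEAD-poor bins thus had scores and widths close to those of the whole list.

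Bins dense in both lists held 916 TEAD and 428 YAP5SA peaks. Chromosome 1 from 98000001 to 99000000 had 44 TEAD and 8 YAP5SA peaks. There the strongest peaks of the lists coincided, TEAD from 98464828 to 98465737 (score 3100) and YAP5SA from 98464904 to 98465311 (score 317). Chromosome 17 from 46000001 to 47000000 had 39 TEAD and 11 YAP5SA peaks, and chromosome 3 from 149000001 to 150000000 had 38 and 8. In bins dense in both, 11.1% of TEAD peaks (9.17 to 13.4) and 24.5% of YAP5SA peaks (20.5 to 28.9) overlapped the other list, against 5.65% and 5.72% over all bins. A peak in such a bin has more peaks of the other list to meet, and an overlapping pair adds to both counts. The higher shares therefore follow in part from the rule.

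The fullest bins of each list were mostly not among the opposite bins. The bin with the most TEAD peaks, chromosome 21 from 10000001 to 11000000, held 58 TEAD, 3 YAP5SA and 26 YAP peaks and lies beside a peak-free stretch of over 2.5 Mb. The second, chromosome 7 from 79000001 to 80000000, held 48 TEAD peaks, 2 YAP5SA peaks and 1 YAP peak, and none of its TEAD peaks was repeat-like, that is over 1 kb wide or within 2 Mb of a peak-free stretch of over 2.5 Mb. With 1 YAP5SA peak fewer it would have been called. Next came the bin on chromosome 1 from 98000001, that on chromosome 10 from 39000001, and, tied at 39 TEAD peaks, chromosome 7 from 18000001 with 3 YAP5SA peaks and chromosome 17 from 46000001. The fullest YAP5SA bin was chromosome 1 from 52000001 to 53000000 with 15 YAP5SA and 8 TEAD peaks, of which none overlapped. It was followed by chromosome 3 from 196000001 (13 YAP5SA, 2 TEAD), the bin on chromosome 19 from 20000001, and 4 bins tied at 12 YAP5SA peaks. The tied bins were chromosome 8 from 101000001 (4 TEAD peaks), chromosome 18 from 13000001 (6), and chromosome 22 from 29000001 (2) and from 30000001 (3). The bin on chromosome 18 lies within 2 Mb of a peak-free stretch of over 2.5 Mb. Only 2 of its 12 YAP5SA peaks and 1 of its 6 TEAD peaks were not repeat-like. On chromosome 1 from 52000001, 11 of the 15 YAP5SA peaks lay within 12500 bp of another.

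Density carried over to neighbouring bins for TEAD more than for YAP5SA. Spearman's rank correlation between a bin and the next was 0.241 for TEAD and 0.105 for YAP5SA over 2644 pairs. Of the bins dense in TEAD, 44.1% (161 of 365) had a dense bin beside them, against 22.5% (47 of 209) for YAP5SA. More dense bins make dense neighbours likelier, so the shares are not on an equal footing. The longest TEAD runs reached 7 dense bins. One covered chromosome 19 from 44000001 to 51000000 with 104 TEAD and 32 YAP5SA peaks, and another chromosome 17 from 40000001 to 47000000 with 91 and 33. The run with the most TEAD peaks, on chromosome 7 from 79000001 to 86000000, held 48, 32, 22, 15, 18, 19 and 23 TEAD peaks in turn, with 2, 5, 2, 3, 6, 8 and 4 YAP5SA peaks. TEAD density there fell and rose again, and YAP5SA counts varied between 2 and 8 peaks. At the tip of chromosome 19, from 1 to 5000000, 5 dense TEAD bins held 56 TEAD and 9 YAP5SA peaks. The longest YAP5SA run was of 4 bins on chromosome 20 from 2000001 to 6000000, with 31 YAP5SA and 14 TEAD peaks.

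**Figure D4:**
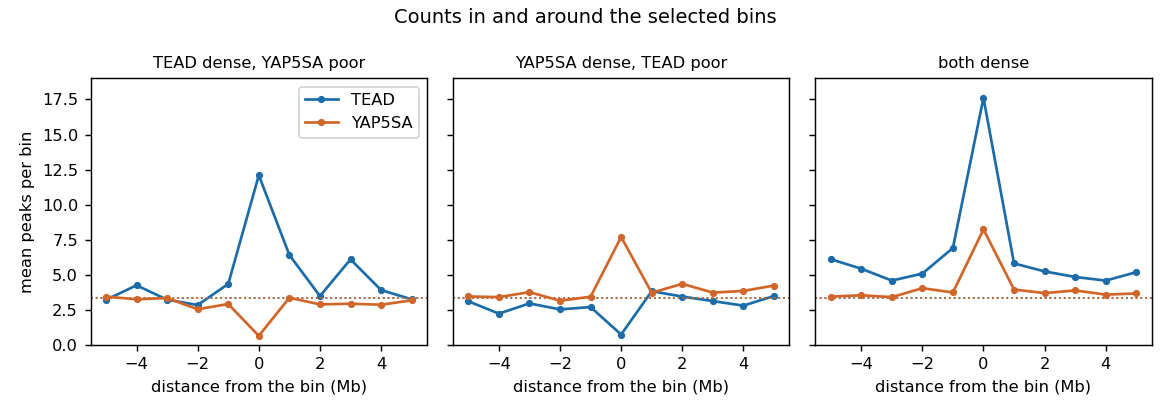
Mean peaks per bin (y axis) for TEAD in blue and YAP5SA in orange, at distances of up to 5 Mb from the selected bin at 0 (x axis), for the 3 kinds of bin; dotted lines give the mean of all bins, 3.32 and 3.35. Counts at 0 follow from the selection, while beside it YAP5SA is back near its mean and TEAD stays higher around bins dense in both. TEAD is also higher in the bins next to TEAD-dense, YAP5SA-poor bins, at 4.34 on the left and 6.40 on the right.

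The bins next to the selected ones were not used by the rule. Next to TEAD-dense, YAP5SA-poor bins, 81 bins outside the class held a mean of 5.04 TEAD peaks (median 2) and 3.27 YAP5SA peaks (median 3). Next to YAP5SA-dense, TEAD-poor bins, 81 bins held 3.46 TEAD and 3.31 YAP5SA peaks. Next to bins dense in both, 96 bins held 5.29 TEAD peaks (median 3) and 3.61 YAP5SA peaks. These means leave out neighbours of the same class: 4 of the 44 and 4 of the 45 bins had one. With them included, bins to the left and right held 2.91 and 3.36 YAP5SA peaks for the first class and 3.43 and 3.71 for the second.

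Stretches without TEAD were longer than stretches without YAP5SA. As TEAD had 698 empty bins and YAP5SA 146, longer empty runs were likelier for TEAD, so this follows in part from those counts. Runs of 4 or more bins in use with no TEAD peak numbered 28 and covered 128 bins, which held 317 YAP5SA peaks. No run without YAP5SA was longer than 2 bins. The longest without TEAD were of 7 bins: chromosome 8 from 131000001 to 138000000, with 23 YAP5SA and 10 YAP peaks, and chromosome 13 from 53000001 to 60000000, with 16 and 3. A run of 5 on chromosome 18 from 55000001 to 60000000 held 21 YAP5SA peaks, and one on chromosome 12 from 81000001 to 86000000 held 19. Of the 2-bin runs without YAP5SA, the one with the most TEAD peaks was chromosome 16 from 31000001 to 33000000, with 12, while single bins without YAP5SA reached 20.

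Whole chromosomes differed far more for TEAD. TEAD peaks per bin in use ran from 1.56 on chromosome 18 to 6.79 on chromosome 17, a 4.35-fold range with a coefficient of variation of 36.5% over 22 chromosomes. YAP5SA ran from 2.30 on chromosome 10 to 4.25 on chromosome 22, a 1.85-fold range with 12.7%. Chromosomes 17 and 19, both known to be rich in genes, had the highest TEAD density, 6.79 and 5.84. Chromosomes 21 and 10 came next, at 4.47 and 4.46, and 1 bin held 58 of the 170 TEAD peaks of chromosome 21. Chromosomes 18, 4 and 13, known to be poor in genes, had the lowest, at 1.56, 1.87 and 2.22. Chromosomes 16 and 22 are gene-rich too, and held only 2.25 and 2.69 TEAD peaks per bin. YAP5SA had 3.81, 3.39, 2.89, 2.99, 3.33, 3.22 and 4.25 on chromosomes 17, 19, 18, 4, 13, 16 and 22. Whether TEAD density follows gene density was not tested.

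Arms were separated at the longest stretch of each chromosome with no peak in any list. On 18 chromosomes this stretch was over 2.5 Mb, and it gave 36 arms. On chromosomes 13, 14, 15 and 22, whose first peaks already lie on the long arm, the longest such stretch was between 1.16 and 1.42 Mb and lies within that arm, so these 4 are described whole. The share of each list's autosomal peaks in an arm was compared as a ratio, TEAD share divided by YAP5SA share. Of these 40 units, 6 (15%) had a ratio of at least 1.5 and 7 (17.5%) a ratio of 1/1.5 or less. With the 4 chromosomes split as well, as first laid down, 6 of 43 units (14%) and 9 of 43 (20.9%) passed; among the 9 were a segment each of chromosomes 13, 14 and 22.

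**Figure D5:**
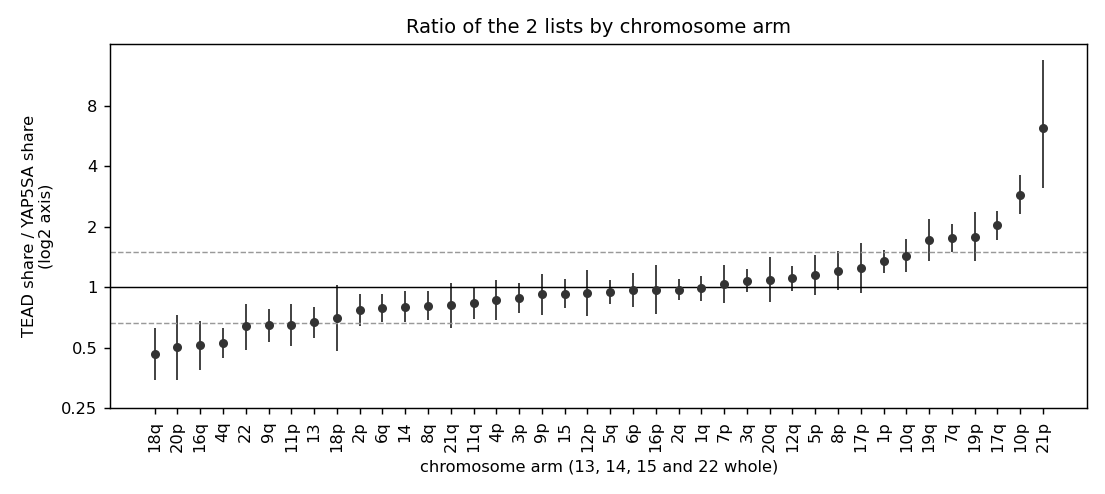
TEAD share of peaks divided by YAP5SA share (y axis, log2 axis) for 36 arms and 4 whole chromosomes (x axis), in order of the ratio; bars are exact 95% intervals of counting error and dashed lines mark 1.5-fold. The ratio runs from 0.467 on 18q to 6.15 on 21p.

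Arms richer in TEAD were 21p, 10p, 17q, 19p, 7q and 19q. The ratio of 6.15 on 21p (95% interval 3.13 to 13.5) rests on 61 TEAD and 10 YAP5SA peaks in 3 bins beside a peak-free stretch, and its 61 TEAD peaks joined into 7 sites. As sites its ratio was 1.06, and without repeat-like peaks it had no peak left. On 10p 315 TEAD and 110 YAP5SA peaks gave 2.89 (2.32 to 3.62). Its 3 fullest TEAD bins held 113 of the 315, and without them the ratio was 1.96, lower by construction. Counted as sites, 10p held 127 TEAD and 106 YAP5SA sites, a ratio of 1.63. The excess on 10p was thus smaller in sites than in peaks, and 73.0% of its TEAD peaks lay within 12500 bp of another.

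On 17q, in contrast, the ratio was 2.03 for peaks (429 TEAD, 213 YAP5SA; 1.72 to 2.41) and 2.03 for sites, and TEAD outnumbered YAP5SA in 36 of 57 bins. On 19p it was 1.78 for peaks (143 and 81; 1.35 to 2.37) and 2.22 for sites, with only 19.6% of TEAD peaks within 12500 bp of another. On 19q it was 1.71 (190 and 112; 1.35 to 2.18) and 1.74 for sites. On these 3 arms the excess was as large in sites as in peaks. Without the 3 fullest TEAD bins of each arm it was 1.68 on 17q, 1.41 on 19p and 1.36 on 19q, the last 2 under 1.5-fold. On 7q it was 1.77 (429 and 245; 1.51 to 2.08), 1.55 for sites and 1.41 without the 3 fullest TEAD bins, and TEAD outnumbered YAP5SA in 42 of 99 bins against 41 the other way. The 3 fullest bins of 7q held 103 of its 429 TEAD peaks. Leaving out bins picked for their TEAD count lowers the ratio by construction. The 3 bins are also a larger part of 19p, with 24 bins, than of 7q, with 99, so a fall below 1.5-fold decides nothing by itself.

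Units richer in YAP5SA were 18q, 20p, 16q, 4q, chromosome 22, 9q and 11p. The ratio was 0.467 on 18q (68 TEAD, 147 YAP5SA; 0.345 to 0.626), 0.504 on 20p (45 and 90; 0.345 to 0.729) and 0.517 on 16q (79 and 154; 0.389 to 0.683). It was 0.531 on 4q (201 and 382; 0.445 to 0.631), where 67 of 134 bins held no TEAD peak and 7 no YAP5SA peak. On chromosome 22 it was 0.640 (97 and 153; 0.491 to 0.830), on 9q 0.648 (0.536 to 0.782) and on 11p 0.652 (0.514 to 0.826). YAP5SA density was 2.49 peaks per bin on 18q, 3.33 on 20p, 3.42 on 16q and 2.85 on 4q, against a mean of 3.35. TEAD had 1.15, 1.67, 1.76 and 1.5 there. On these 4 arms TEAD lay far below its mean of 3.32 and YAP5SA at or below its own, except on 16q, where it was slightly above. On the other units YAP5SA lay above its mean and TEAD below its own: chromosome 22 had 4.25 YAP5SA and 2.69 TEAD peaks per bin, 9q 3.79 and 2.43, and 11p 3.61 and 2.33. Counted as sites, chromosome 22, 9q and 11p had ratios of 0.804, 0.750 and 0.743, all short of 1.5-fold.

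Over the 36 arms TEAD density ran from 1.15 to 20.3 peaks per bin (coefficient of variation 79.3%) and YAP5SA from 2.10 on 10q to 4.45 on 3q (14.4%). Without 21p, whose 3 bins give the 20.3, the TEAD coefficient was 42.6% and the highest value 7.88, on 10p, while YAP5SA had 14.6%. The arms 10p, 10q, 7q and 18q were the lowest for YAP5SA, at 2.75, 2.10, 2.47 and 2.49 peaks per bin. TEAD had 7.88, 2.98, 4.33 and 1.15 there. The YAP list gave 1.30, 1.59, 1.63 and 0.651 times the YAP5SA share on these arms. On 10p, 10q and 7q both other lists thus held more of their peaks than YAP5SA did, and on 18q both held less. On other arms the YAP ratio was mixed. It was 1.04 on 17q and 0.808 on 19p, both richer in TEAD, and 1.31 on 20p, richer in YAP5SA.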

How the data were processed

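Reads were aligned to hg19 with Bowtie2, per the submitters' processing notes. The authors deposited 1 list of MACS-named peaks per library, with coordinates and a score; from its range the score was taken to be -log10 p multiplied by 10, and it was used to describe and rank peaks within a list, since scores of different lists are not on 1 scale. The caller's version, its threshold and the control library were not given in the sources used here, and read depth is unknown. Deposited starts were treated as 0-based, so 1 was added to each start before printing. Peaks on chromosomes 1 to 22 of 3 lists were counted by their centres in bins of 1 Mb. No hg19 sequence or annotation was used here, so bins carry no gene names or sequences.

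The members, bins and thresholds were chosen with earlier results of these data known. Named were, per direction, the 10 opposite bins with the largest difference in peaks per 1000 of the list, the 5 fullest bins of each list and every arm past 1.5-fold; bins dense in both, runs and single chromosomes were chosen after their values were seen. Arms needed at least 50 peaks of both lists together. TEAD or YAP5SA peaks count as overlapping from 1 bp on. Alternatives changed bin size, offset, anchor, thresholds and peak selection. The code was tested on simulated lists with planted bins. Software was Python 3.11.15 with pandas 2.3.3 and numpy 2.4.6 for counting, scipy 1.17.1 for intervals and matplotlib 3.10.9 for plots.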

Additional observations from a re-analysis of the deposited data

Results flagged for a closer look

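Peaks outside chromosomes 1 to 22 were not part of the comparison, and of these only chromosome X and the unplaced contigs are given here. Both hold peaks of both lists, with no control library beside them. Chromosome X held 125 TEAD and 465 YAP5SA peaks. In 150 bins in use this was 0.833 TEAD and 3.10 YAP5SA peaks per bin, and 90 bins had no TEAD peak while 5 had no YAP5SA peak. The ratio of the shares of the full lists was 0.277 (exact 95% interval 0.226 to 0.339, counting error only), below the 0.467 of 18q, the lowest autosomal arm, whose ratio is of autosomal shares. Contigs held 92 TEAD and 39 YAP5SA peaks, a ratio of 2.43 (1.66 to 3.64).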

How the results depend on the processing

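For the 6 results on spread, opposite bins and arms, 54 values were recomputed and 37 stayed within the counting interval of the reported value or, for counts of arms, within 1.5 times. The share of TEAD peaks in the densest 10% of bins was 51.9% with bins of 500 kb, 38.2% with bins of 2 Mb, 54.7% in the higher-scoring 50% of each list, 35.3% with peaks joined as sites and 47.8% over all bins from position 0. For YAP5SA it was 26.4%, 19.9%, 26.7% and 23.9% with bins of 500 kb, bins of 2 Mb, the higher-scoring 50% and all bins. TEAD stayed above YAP5SA in each of these settings. Bins dense in TEAD and poor in YAP5SA made up 2.63% (71 bins) without overlapping peaks and 2.92% (79) with dense set at 1.5 times the mean. Bins dense in YAP5SA and poor in TEAD made up 3.88% (195 bins) at 500 kb, 0.579% (8) at 2 Mb, 2.51% (68) with bins shifted by 500 kb, 3.71% (93) in the higher-scoring 50%, 1.18% (32) as sites and 3.99% (108) with dense at 1.5 times. The number of such bins thus depends on where bins begin and how wide they are, and with a mean near 3 peaks whole-number thresholds move in large steps. The setting with 4 chromosomes kept whole was chosen after seeing the data. The 20 named opposite bins were chosen for the largest differences and hold at most 1 peak of the other list. Their direction was thus largely fixed by the selection, and recomputing it says little about them. As a ratio of shares, none of these 20 bins and 12 arms changed direction in 125 recomputed values. The settings were without repeat-like regions, among higher-scoring peaks, as sites or without overlapping peaks. As sites, however, 21p held more YAP5SA than TEAD sites (43.75% TEAD, against 42.4% of all sites), the bin on chromosome 10 from 39000001 held 1 of each, and the 2 bins beside peak-free stretches and 21p have no peak left without repeat-like regions. No paired analysis was possible because every group consists of a single library, and leaving out replicates was not an option either. Unknown read depth limits how many weak peaks are listed, so an empty bin is not shown to be free of binding.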
